A study of Homo sapiens with 4 samples.

Results

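The 10 genes described here encode the machinery that places and removes N6-methyladenosine (m6A) on mRNA. They are the 8 subunits of the nuclear writer complex, METTL3, METTL14, WTAP, VIRMA, ZC3H13, RBM15, RBM15B and CBLL1, and the 2 erasers FTO and ALKBH5. The group was chosen by a measured value, the lower level of CBLL1 after treatment with SF1-8. The difference of CBLL1 between the groups is therefore given as a description without a test. The other 9 genes were taken for their known place in the pathway, with earlier results of these data known. Where several entries of the deposited table name a symbol, that with the highest mean count over the 4 libraries was used, which gave 10 of the 62778 entries that name a gene.

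RNA-seq was carried out on K562-U2AF1_S34F cells. K562 is an established human erythroleukemia cell line, and all 4 samples overexpress the S34F mutant of the splicing factor U2AF1, so the controls carry it as well. The control group comprised 2 samples given the solvent DMSO, and the treated group 2 samples given 30 uM SF1-8, a ligand of the U2AF homology motif of U2AF1, for 48 h. The labels name neither a promoter for the transgene nor a clone, and do not say whether the 2 samples of a group were grown separately, so p-values measure only the spread between these libraries.

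Methylation of adenosine at the N6 position is the most abundant internal modification of mRNA. METTL3 is the catalytic subunit, METTL14 holds the RNA substrate beside it, and WTAP anchors this pair in nuclear speckles. VIRMA, ZC3H13, RBM15 or RBM15B, and CBLL1 (also called HAKAI) form a larger regulatory assembly with WTAP that directs the enzyme along the transcript, and CBLL1 is in addition an E3 ubiquitin ligase first described for its action on E-cadherin. FTO and ALKBH5 are dioxygenases that take the methyl group off, and proteins with a YTH domain read the mark. In myeloid leukemia cells METTL3, METTL14 and FTO are known for roles in growth and differentiation.

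The counts of the 4 libraries summed to between 45522905 in DMSO 1 and 67554610 in SF1-8 1, and TMM factors ranged from 0.973 to 1.05. Levels are given as FPKM, which are per length, so comparisons between genes depend on the length taken for each entry. In DMSO 1, for example, RBM15 and RBM15B had counts of 3406 and 3334 but an FPKM of 2.65 and 8.71. Differences are log2 fold changes of SF1-8 relative to DMSO from edgeR's fit to the counts of 26167 genes, whose median was -0.011. The erythroid genes GATA1 (75.9 to 79.1 FPKM), KLF1 (23.9 to 25.9 FPKM) and TFRC (95.7 to 116 FPKM) were expressed in every library. The 6 fibroblast markers COL1A1, COL1A2, COL3A1, DCN, LUM and PDGFRB were all lower in both SF1-8 libraries than in both DMSO libraries. Their summed FPKM was 9.79 and 4.64 in the DMSO libraries and 2.27 and 0.558 in the SF1-8 libraries. All of these but COL1A1 had an unadjusted p under 0.05 in the quasi-likelihood test of edgeR, 0 of the 6 passed after adjustment, and LUM was listed at 0 under SF1-8. DCN, LUM and PDGFRB were already low under DMSO, with a mean FPKM of 0.0488, 0.128 and 0.0416, so their differences rest on few counts. Over all genes tested, 20.0% were below in both treated libraries and 4.33% had an unadjusted p under 0.05. The part of these lower fibroblast marker values in the results below was not tested. Of the blood cell markers, CD3E was at most 0.270 FPKM and MS4A1 at most 0.00718 FPKM in any library, while CD3D lay at 3.82 to 5.14 FPKM and LYZ at 4.08 to 5.80 FPKM.

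The sequences around the starts of 4 of the 10 genes are shown because these 4 hold the same short motif. Any part of the motif in the levels of these genes was not tested. Each runs from 250 bases before to 50 bases after the start that RefSeq gives on GRCh38.p14, and is written in the direction of the gene. The windows are chr7:107743892-107744191 on the plus strand for CBLL1, chr14:21511291-21511590 on the minus strand for METTL3, chr4:118685142-118685441 on the plus strand for METTL14 and chr13:46052697-46052996 on the minus strand for ZC3H13. Capitals mark matches on either strand to short promoter motifs, which do not overlap here. One is the core bound by ETS factors, with the letters CCGGAAG. Another is the GC box known from binding of SP1, with the letters GGGCGG. The last is the TATA box that positions transcription, with the letters TATAAA.
CBLL1: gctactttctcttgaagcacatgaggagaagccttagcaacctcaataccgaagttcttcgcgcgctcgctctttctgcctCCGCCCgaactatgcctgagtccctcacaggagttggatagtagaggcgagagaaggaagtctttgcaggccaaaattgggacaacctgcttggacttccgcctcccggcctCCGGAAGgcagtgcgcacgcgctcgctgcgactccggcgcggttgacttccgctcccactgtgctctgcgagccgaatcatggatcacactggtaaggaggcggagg
METTL3: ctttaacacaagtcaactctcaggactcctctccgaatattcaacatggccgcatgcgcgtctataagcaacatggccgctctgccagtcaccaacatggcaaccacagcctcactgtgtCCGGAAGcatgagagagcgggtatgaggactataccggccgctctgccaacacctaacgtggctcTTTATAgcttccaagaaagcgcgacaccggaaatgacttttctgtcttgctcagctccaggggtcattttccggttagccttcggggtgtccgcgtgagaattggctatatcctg
METTL14: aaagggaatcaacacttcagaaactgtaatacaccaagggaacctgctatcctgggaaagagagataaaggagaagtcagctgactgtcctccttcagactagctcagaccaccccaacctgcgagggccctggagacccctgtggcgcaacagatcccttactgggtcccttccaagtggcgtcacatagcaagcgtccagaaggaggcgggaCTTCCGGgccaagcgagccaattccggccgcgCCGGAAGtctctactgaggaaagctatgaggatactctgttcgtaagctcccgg
ZC3H13: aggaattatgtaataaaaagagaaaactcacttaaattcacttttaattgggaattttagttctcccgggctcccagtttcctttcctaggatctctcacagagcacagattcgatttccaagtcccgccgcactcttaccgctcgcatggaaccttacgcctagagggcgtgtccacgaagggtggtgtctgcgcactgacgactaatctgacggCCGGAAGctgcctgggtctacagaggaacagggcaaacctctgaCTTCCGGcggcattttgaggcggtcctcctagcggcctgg
A window was found for 9 of the 10 genes. The ETS core occurred in 4 of these 9, against 10.3% of the 35116 windows of this length in the table. Counted from the start, its first base lay at position -57 in CBLL1, at -130 in METTL3, at -36 and -4 in METTL14, and at -34 and 11 in ZC3H13. The GC box occurred in 5 of the 9, namely CBLL1, WTAP, RBM15, RBM15B and ALKBH5, against 45.0% of all windows. The letters of the TATA box were found in METTL3 alone, against 11.5% of all windows. There they lay at position -65 on the strand opposite to the gene. The cyclic AMP response element TGACGTCA was found in 0 of the 9, against 1.85%. The GC content of the windows lay between 52.0% and 74.3%, and the median of all windows was 58.7%. These matches are a description of letters in the sequence.

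CBLL1 lies on chromosome 7 of GRCh38 from 107743949 to 107761667 on the plus strand, and its entry names no other gene. The entry holds 8 transcripts, of which GENCODE version 29 classes 4 as protein-coding, 1 as a target of nonsense-mediated decay and 3 as retaining an intron. The coding transcripts have 5 or 6 exons and 804 to 4432 nucleotides. The FPKM of CBLL1 was 12.4 and 10.8 in the DMSO libraries and 2.96 and 2.82 in the SF1-8 libraries. Both treated libraries were thus far below both controls, and the higher exceeded the lower library of a group by a factor of 1.14 under DMSO and 1.05 under SF1-8. On the log2 scale the difference was -1.97 (standard error, SE, 0.098), a level 3.91-fold lower under SF1-8. Over all 26167 genes, 20.0% were likewise lower in both SF1-8 libraries than in both DMSO libraries in FPKM, and 0.0420% passed an adjusted p of 0.05 (Benjamini-Hochberg, in the quasi-likelihood test of edgeR), and neither share is read against CBLL1, which was selected on this contrast. Among tested genes, CBLL1 moved from the 90.1st percentile of level under DMSO to the 69.4th under SF1-8. The values are totals over transcripts, and in bulk RNA fewer cells with the transcript and less of it per cell cannot be told apart.

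**Figure D1:**
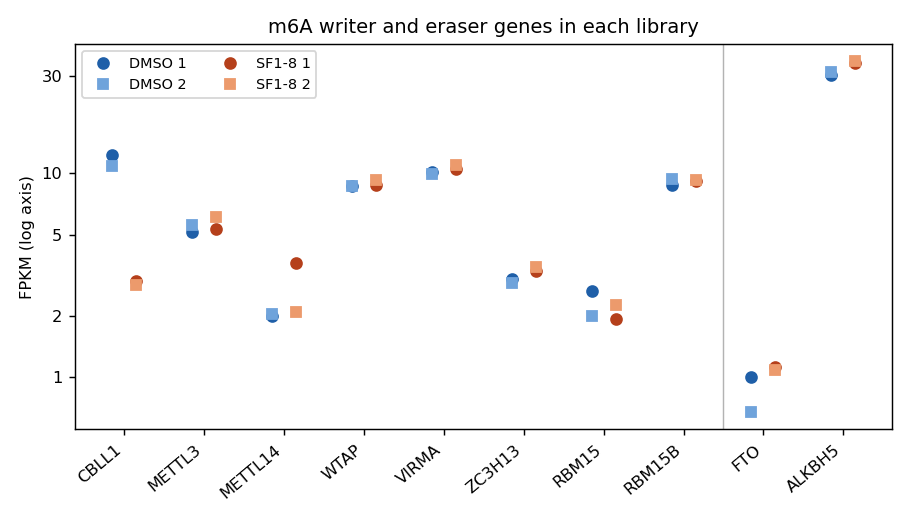
FPKM (log axis) of the 10 genes in each of the 4 libraries, with 1 point per library and a line between writers and erasers. CBLL1 lies at 10.8 to 12.4 under DMSO and 2.82 to 2.96 under SF1-8, while the groups lie closer together or overlap in the other 9 genes, in which METTL14 in SF1-8 1 (3.62) and FTO in DMSO 2 (0.674) stand apart from their other libraries.

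The other 9 genes passed the filter on low counts, and 0 of the 9 passed an adjusted p of 0.05, each having a Benjamini-Hochberg adjusted p of 0.970 in the quasi-likelihood test of edgeR. Before adjustment 1 of the 9, ALKBH5, had a p under 0.05, against 4.33% of all genes. In 8 of the 9 the log2 fold change was above 0, and 6 had a higher FPKM in each treated library than in each control, an order seen in 14.2% of all genes. On counts scaled by TMM the number was also 6, against 17.3% of all genes. In 0 of the 9 did both SF1-8 libraries lie below both DMSO libraries, and 3 overlapped. The median log2 fold change of the 9 was 0.12, beside -0.011 for all genes. The 95% intervals of their folds reached no higher than 2.35 and no lower than 0.706.

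METTL3, the methyltransferase itself, lies on chromosome 14 from 21498133 to 21511342 on the minus strand. Its FPKM was 5.16 and 5.55 under DMSO and 5.31 and 6.07 under SF1-8, so the groups overlapped. The log2 fold change was 0.11 (SE 0.12, 95% interval -0.19 to 0.41). METTL14, its partner on chromosome 4 from 118685392 to 118715430 on the plus strand, had an FPKM of 2.00 and 2.02 under DMSO, 3.62 in SF1-8 1 and 2.07 in SF1-8 2. SF1-8 1 alone was high, and the other SF1-8 library lay just above the controls. The log2 fold change of METTL14 was 0.53 (SE 0.28, 95% interval -0.18 to 1.23), and it was 0.061 without SF1-8 1 and 0.88 without SF1-8 2. The FPKM of METTL14 relative to METTL3 was 0.388 and 0.365 under DMSO, 0.682 in SF1-8 1 and 0.342 in SF1-8 2.

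WTAP, the adaptor that joins the catalytic pair to the regulatory subunits, lies on chromosome 6 from 159725585 to 159756319 on the plus strand. It had an FPKM of 8.61 and 8.69 under DMSO and 8.76 and 9.25 under SF1-8. Its log2 fold change was 0.085 (SE 0.079, 95% interval -0.12 to 0.29). VIRMA, the large scaffold of the regulatory assembly, lies on chromosome 8 from 94487689 to 94553529 on the minus strand. The FPKM of VIRMA was 10.1 and 9.94 under DMSO and 10.5 and 10.9 under SF1-8, with a log2 fold change of 0.12 (SE 0.071, 95% interval -0.059 to 0.30). In both genes each treated library lay above each control, with the ranges of the groups close to each other. ZC3H13, a zinc finger protein that keeps the complex in the nucleus, lies on chromosome 13 from 45954465 to 46052759 on the minus strand. For ZC3H13 the FPKM was 3.04 and 2.90 under DMSO and 3.30 and 3.47 under SF1-8, and the log2 fold change was 0.22 (SE 0.090, 95% interval -0.011 to 0.45).

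RBM15 and RBM15B are RNA-binding proteins with a SPOC domain that recruit the complex to chosen transcripts. RBM15 had an FPKM of 2.65 and 1.98 under DMSO and 1.91 and 2.25 under SF1-8, and the groups overlapped. Its log2 fold change was -0.12 (SE 0.15, 95% interval -0.50 to 0.26), and it turned to 0.057 without DMSO 1. The entry of RBM15, on chromosome 1 from 110338506 to 110443817, also names LAMTOR5-AS1 and AL355488 and holds 66 transcripts. It is far longer than the 8176 bases of RBM15 in GENCODE, so reads of the other 2 genes can be included. RBM15B, on chromosome 3 from 51391285 to 51397908 on the plus strand, has a single transcript, and its FPKM was 8.71 and 9.31 under DMSO and 9.18 and 9.25 under SF1-8. The log2 fold change of RBM15B was 0.058 (SE 0.093, 95% interval -0.18 to 0.30), and it turned to -0.028 without DMSO 1. SPEN, a further protein with a SPOC domain, had an FPKM between 16.4 and 18.7 and a log2 fold change of 0.070.

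FTO, on chromosome 16 from 53701692 to 54153448 on the plus strand, had the lowest FPKM of the 10 genes in both groups. By counts under DMSO, METTL14 (793 and 1122) was lower than FTO (1232 and 1169). The FPKM of FTO was 0.994 and 0.674 under DMSO and 1.12 and 1.08 under SF1-8. Both treated libraries were thus above both controls, DMSO 2 being the low one. The log2 fold change was 0.43 (SE 0.18, 95% interval -0.031 to 0.89), with 0.69 without DMSO 1 and 0.21 without DMSO 2. Another 5 short entries also name FTO and were left out, their counts summing to 107, 15, 18 and 13 in DMSO 1, DMSO 2, SF1-8 1 and SF1-8 2. ALKBH5, on chromosome 17 from 18183078 to 18209954 on the plus strand, had the highest FPKM of the 10. It was 30.2 and 31.4 under DMSO and 34.9 and 35.3 under SF1-8. Its log2 fold change was 0.22 (SE 0.079, 95% interval 0.015 to 0.42), and the treated libraries lay above the controls. By edgeR's quasi-likelihood test ALKBH5 had a p of 0.0397 before and 0.970 after Benjamini-Hochberg adjustment over all genes.

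**Figure D2:**
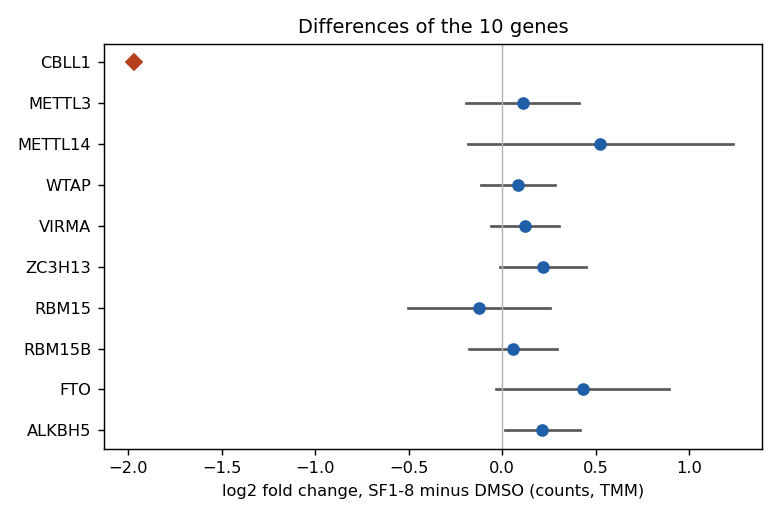
Log2 fold changes of SF1-8 relative to DMSO of the 10 genes, with 95% intervals as bars for 9 of them, a diamond without a bar for CBLL1 and a line at 0. The value of CBLL1 (-1.97), on which the group was selected, lies far to the negative side, and the intervals of 8 of the other 9 genes cover 0.

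With DMSO the order of FPKM from the highest was ALKBH5, CBLL1, VIRMA, RBM15B, WTAP, METTL3, ZC3H13, RBM15, METTL14 and FTO. Only RBM15 and METTL14 overlapped with their neighbour in this order. With SF1-8 the order was ALKBH5, VIRMA, RBM15B, WTAP, METTL3, ZC3H13, CBLL1, METTL14, RBM15 and FTO. The ranges of RBM15B and WTAP overlapped, as did those of CBLL1 with METTL14 and of METTL14 with RBM15. CBLL1 thus went from the highest FPKM of the 8 writer subunits to the level of METTL14. The other 7 kept their order except for RBM15 and METTL14, whose ranges overlapped in both groups. This order holds for FPKM, and counts, which are not per length, gave another. By counts under DMSO, VIRMA (6292 and 8665) and WTAP (4907 and 6933) were above CBLL1 (3736 and 4569), as was RBM15B in DMSO 2 (4990).

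Relative to WTAP within the same library, the FPKM of CBLL1 was 1.43 and 1.24 under DMSO and 0.338 and 0.305 under SF1-8. For VIRMA the same ratio lay between 1.14 and 1.20 over the 4 libraries, for RBM15B between 1.00 and 1.07, and for METTL3 between 0.599 and 0.656. ZC3H13 ranged from 0.333 to 0.376, RBM15 from 0.218 to 0.308 and METTL14 from 0.224 to 0.413. These ratios compare transcripts and not proteins, and their heights depend on the length taken for each entry, as do the shares that follow. CBLL1 made up 23.5% and 21.1% of the summed FPKM of the 8 writer subunits under DMSO, and 6.51% and 6.12% under SF1-8. The sum of the other 7 was 40.3 and 40.4 FPKM under DMSO and 42.6 and 43.3 FPKM under SF1-8.

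**Figure D3:**
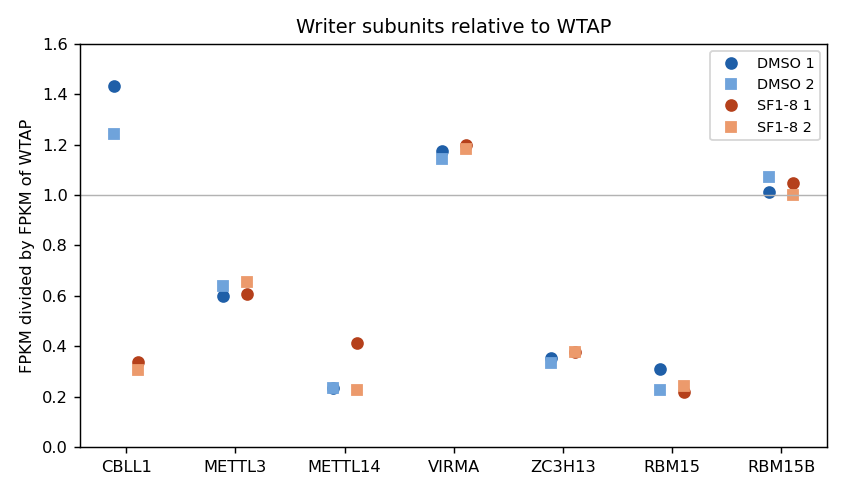
FPKM of 7 writer subunits divided by that of WTAP in the same library, with 1 point per library and a line at a ratio of 1. The ratio of CBLL1 is 1.24 to 1.43 under DMSO and 0.305 to 0.338 under SF1-8, and those of VIRMA, RBM15B and METTL3 lie at nearly the same height in all 4 libraries.

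The entries around CBLL1 were examined because position was not used to choose the genes. Within 500 kb of either end lay 18 other entries that name a gene, of which 13 were tested. In the quasi-likelihood test of edgeR 0 of the 13 had a p under 0.05 before or after Benjamini-Hochberg adjustment. Over all genes, 4.33% were under 0.05 before and 0.0420% after adjustment. The smallest p-values of the 13 before adjustment in this test were 0.05002 for GPR22 and 0.0594 for the entry that joins DUS4L and BCAP29. COG5, a subunit of a Golgi tethering complex, had an FPKM of 9.84 and 8.57 under DMSO and 9.62 and 9.19 under SF1-8, and a log2 fold change of 0.061 (SE 0.084). DLD, a subunit of mitochondrial dehydrogenase complexes, had 33.5 and 28.7 FPKM under DMSO and 32.2 and 33.7 FPKM under SF1-8, and a log2 fold change of 0.11 (SE 0.077). LAMB1, a laminin chain, had a log2 fold change of -0.13 (SE 0.10). The entry that joins DUS4L and BCAP29 had 5.29 and 3.43 FPKM under DMSO and 3.29 and 2.82 FPKM under SF1-8, and a log2 fold change of -0.48 (SE 0.20), the lowest of the 13.

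The remaining tested neighbours were expressed at low levels or are short entries. AC005046 had a log2 fold change of 0.93 (SE 0.42) at 0.535 to 1.45 FPKM, and GPR22, an orphan receptor, 0.71 (SE 0.28) at 0.248 to 0.436 FPKM. The 2 entries named AC004839 had log2 fold changes of -0.38 and 0.66, and AC002381 had 0.44, each with a SE larger than the value. SLC26A4, SLC26A3 and NRCAM were below 0.07 FPKM in every library, with log2 fold changes of 0.80, 2.63 and 2.83. On the minus strand, AC002467 runs from 107739999 to 107744581 and overlaps the first 633 bases of the CBLL1 entry. It also spans the whole promoter window shown above, which begins upstream of the entry. It had an FPKM of 0.581 and 0.976 under DMSO and 0.688 and 0.963 under SF1-8, and a log2 fold change of 0.097 (SE 0.35). Whether reads were counted by strand is not given in the sources used here, so reads of the overlap cannot be assigned to either gene with certainty. The level of AC002467 was below that of CBLL1 in every library.

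**Figure D4:**
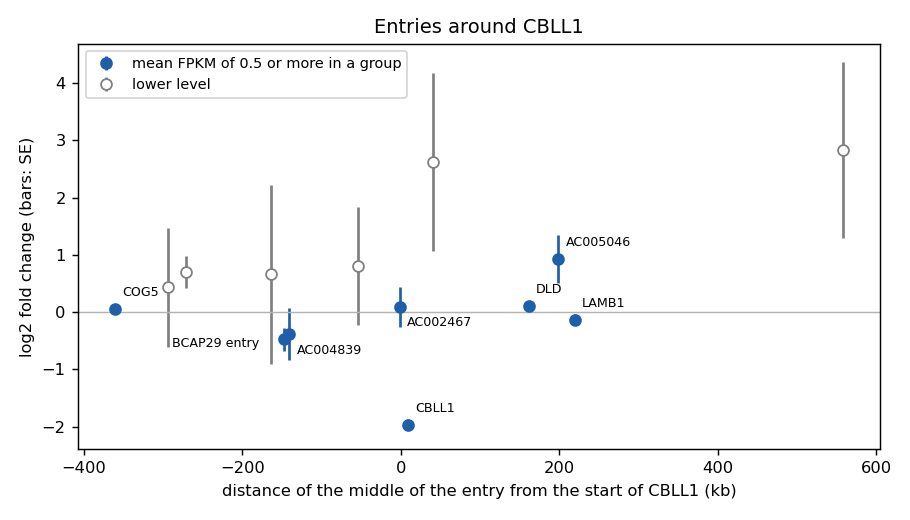
Log2 fold changes with SEs (bars) of CBLL1 and the 13 tested entries around it, by distance in kb from the start of CBLL1. Filled points have a mean FPKM of 0.5 or more in a group. Among these CBLL1, which was selected on this difference, lies at -1.97, and the others range from -0.48 to 0.93.

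The 5 genes whose counts followed CBLL1 most closely over the 4 libraries, by Euclidean distance of centred log2 CPM among 13343 genes, were UBBP4, the entry of NPIPB5 and AC106788, CBL, NUDT4P2 and TYW3. Their distances lay between 0.22 and 0.37 on the log2 scale. With only 4 libraries in 2 groups, this likeness amounts to a similar difference between the groups and is a description. CBL, which encodes an E3 ubiquitin ligase of receptor tyrosine kinases, had an FPKM of 11.3 and 11.2 under DMSO and 2.57 and 2.32 under SF1-8. TYW3, an enzyme of wybutosine synthesis in phenylalanine tRNA, had 10.2 and 10.4 FPKM under DMSO and 3.49 and 2.79 FPKM under SF1-8. UBBP4 and NUDT4P2 are named as pseudogenes and NPIPB5 belongs to a duplicated family, so reads could have been shared with near-identical copies and their values are uncertain.

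The m6A readers were measured at widely different levels, and 0 of 13 passed an adjusted p of 0.05, with 1 of the 13 under 0.05 before adjustment, which is near the 4.33% of all genes. Over all genes 0.0420% passed after adjustment, and both shares apply equally to the lists that follow. Their median log2 fold change was 0.0055. YTHDF3, a cytoplasmic reader, had an FPKM of 13.7 and 12.0 in the controls and 9.68 and 10.3 under SF1-8, both treated libraries being lower. Its log2 fold change was -0.33 (SE 0.082), with a p of 0.00932 before and 0.970 after Benjamini-Hochberg adjustment in edgeR's quasi-likelihood test. YTHDF2, which brings methylated mRNA to decay, had 18.5 and 39.1 FPKM under DMSO and 10.1 and 19.6 FPKM under SF1-8, so the groups overlapped and the libraries of a group differed by about as much as the groups. Its log2 fold change was -0.95 (SE 0.47). YTHDF1 (21.7 to 24.3 FPKM), YTHDC1 (5.39 to 6.06 FPKM) and YTHDC2 (4.87 to 5.28 FPKM) overlapped between the groups. IGF2BP1, which stabilizes methylated mRNA, was the most abundant IGF2BP at 50.1 to 52.6 FPKM and had a log2 fold change of 0.068 (SE 0.057). HNRNPA2B1 and HNRNPC, nuclear readers, had log2 fold changes of 0.0034 and 0.092.

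Other RNA adenosine methyltransferases and their partners gave 0 calls of 10 at a p of 0.05, before or after adjustment, in the quasi-likelihood test of edgeR. METTL5, which modifies ribosomal RNA, had a log2 fold change of -0.025, and PCIF1, which methylates the adenosine next to the cap, -0.031. METTL16, which methylates U6 RNA, had 6.71 and 3.08 FPKM under DMSO and 3.88 and 3.58 FPKM under SF1-8, DMSO 1 being the high library. Of the other ALKBH dioxygenases 0 of 7 had an adjusted p under 0.05, and 1 of the 7 was under 0.05 before adjustment, beside 0.0420% and 4.33% of all genes. ALKBH2, a DNA repair enzyme, had 5.85 and 4.53 FPKM under DMSO and 2.63 and 3.40 FPKM under SF1-8. The log2 fold change of ALKBH2 was -0.75 (SE 0.19), with a p of 0.0117 before and 0.970 after Benjamini-Hochberg adjustment in edgeR's quasi-likelihood test.

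Among 9 genes of methyl donor supply, 8 were tested, and 0 had an adjusted p under 0.05 against 1 before adjustment, beside 0.0420% and 4.33% of all genes. MAT2A, which makes S-adenosylmethionine and whose own mRNA is regulated by METTL16, had 109 and 90.8 FPKM under DMSO and 87.9 and 90.9 FPKM under SF1-8, and a log2 fold change of -0.13 (SE 0.082). AHCYL2, a relative of the enzyme that clears S-adenosylhomocysteine, had 1.71 and 1.24 FPKM under DMSO and 2.14 and 2.52 FPKM under SF1-8. Its log2 fold change was 0.70 (SE 0.18), with a p of 0.0116 before and 0.970 after Benjamini-Hochberg adjustment in edgeR's quasi-likelihood test. MTAP, of the methionine salvage pathway, was listed at 0 in all 4 libraries. The 5 genes of the exon junction complex core, which keeps m6A away from splice sites, had log2 fold changes from -0.11 to -0.012, with 0 of 5 called before or after adjustment.

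Proteins that CBLL1 acts on as a ubiquitin ligase were represented by 4 genes with their kinase, and 0 of the 4 were called before or after adjustment in the quasi-likelihood test of edgeR. CDH1, which encodes E-cadherin, was low, at 0.348 and 0.101 FPKM under DMSO and 0.0886 and 0.0902 FPKM under SF1-8, with a log2 fold change of -1.27 (SE 0.61). CTTN, DOK1 and SRC had log2 fold changes of 0.070, 0.089 and 0.24.

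Leukemia transcripts known as m6A targets were not called after adjustment in 10 of 10 tested, and ASB2 was listed at 0. BCL2, an inhibitor of apoptosis, had 0.271 and 0.238 FPKM under DMSO and 0.570 and 0.578 FPKM under SF1-8. By edgeR's quasi-likelihood test the p of BCL2 was 0.000767 before and 0.397 after Benjamini-Hochberg adjustment, and its log2 fold change was 1.20 (SE 0.17). RARA, the retinoic acid receptor, had 5.25 and 5.16 FPKM under DMSO and 4.16 and 4.32 FPKM under SF1-8, and a log2 fold change of -0.27 (SE 0.10) with a p of 0.0437 before and 0.970 after Benjamini-Hochberg adjustment in the same quasi-likelihood test. MYC had 5.65 and 19.8 FPKM under DMSO and 8.00 and 4.78 FPKM under SF1-8, and the groups overlapped. MYB (27.5 to 30.2 FPKM) and SP1 (20.3 to 20.9 FPKM) had log2 fold changes of 0.032 and 0.059. The median of the 10 was -0.053, beside -0.011 for all genes.

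**Figure D5:**
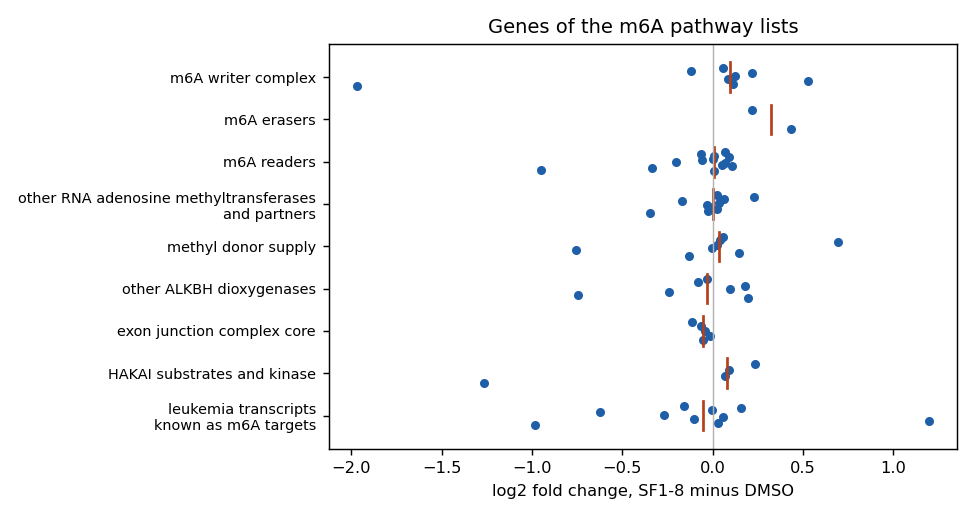
Log2 fold changes of the genes of each list, with 1 point per tested gene, the median of the list as a bar and a line at 0. The list medians range from -0.053 to 0.32, the latter for the 2 erasers. CBLL1 (-1.97), on which the group was selected, is the lowest point shown.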

How the data were processed

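Total RNA of 4 K562-U2AF1_S34F samples was depleted of ribosomal RNA and sequenced. The submitters' processing notes name cutadapt, FastQC, Bowtie2, HISAT2, StringTie and hg38. The authors deposited 1 table of 64873 entries that gives, per library, an estimated count and an FPKM value. The deposited FPKM values are normalized for length and depth, with 0.0001 in place of 0. The deposited counts are whole numbers without normalization, and since 4 was the commonest value above 0 they were not taken as single reads. Their counting error is thus unknown, and precision rests on the spread between 2 libraries per group. The 2095 entries that name no gene held 0.37% of the counts and were left out.

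Counts were normalized by TMM, filtered by filterByExpr and tested by edgeR 4.0.16's quasi-likelihood test in R 4.3.3 on all 26167 remaining genes with Benjamini-Hochberg adjustment. Standard errors are the log2 fold change divided by the square root of F, and intervals use the fit's degrees of freedom. With 2 libraries against 2, the smallest two-sided p of an exact permutation test is 0.333. Alternatives were DESeq2 1.42.0, limma 3.58.1 on log2(FPKM + 1) and log2(FPKM + 0.1), library totals, no filter, counts divided by 4, a replicate block and leaving out each library. Counts of non-overlapping groups on TMM-scaled CPM were added after seeing the data. The steps were tested on simulated data. At an adjusted p under 0.05 the edgeR test found 113 of 185 genes given a 4-fold change (61.1%), and 4.24% of its calls were false. Genes not called can therefore include changed ones.

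All 10 genes are named, with list genes at an unadjusted p under 0.05, tested entries within 500 kb of CBLL1, and the 5 genes nearest to its pattern. Other list genes and markers were named as examples. Members and lists were chosen with earlier results of these data known. Promoter windows come from RefSeq (GRCh38.p14), transcripts from GENCODE version 29. Values per transcript are not analysed here.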

Additional observations from a re-analysis of the deposited data

How the results depend on the processing

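Of 109 log2 fold changes of the 9 genes other than CBLL1 under an alternative, 107 kept their direction. Those that turned were RBM15, from -0.28 to 0.057 over the fits that left out 1 library, and RBM15B, from -0.028 to 0.15. CBLL1 lay between -2.02 and -1.69 on the log2 scale over 11 alternatives, the smallest differences coming from limma on log2(FPKM + 1), whose pseudocount draws values toward 0. Adjusted p-values of the 9 ranged from 0.414 to 1.000 over all edgeR, DESeq2 and limma settings, and 0 of the 9 passed in any. Before adjustment, the number of the 9 with a p under 0.05 was 1 in the main test, 0 with library totals, 2 without the filter on low counts, and 0 to 1 when a library was left out. The gene behind that count changed: it was ALKBH5 in the main test, FTO with DESeq2, with the replicate block and without DMSO 1, ALKBH5 without DMSO 2, and METTL14 without SF1-8 2.

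Over all genes, 11 had an adjusted p under 0.05, against 163 with DESeq2, 31 without the filter, 1 with limma and FPKM above 1 in at least 2 libraries, and 0 to 20 when a library was left out, the 0 being without DMSO 1. Limma gave 0 with a pseudocount of 1 (1493 before adjustment) and 0 with 0.1 (1497 before adjustment). With the replicate number as a block (replicate block) the number was 0 after and 971 before adjustment, and the log2 fold change of METTL14 was 0.47. The labels tie libraries of the same number by nothing else, and the differences between replicate 1 and 2 correlated at 0.016 between the groups over 26167 genes, so the number was not taken as a pairing. Before adjustment, 1132 genes had a p under 0.05, and 1083 to 2004 when a library was left out, the highest without DMSO 2. With library totals the median over all genes shifted to -0.058 on the log2 scale.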
